A study of Mus musculus with 7 samples.

Results

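The genes studied here are Stat2, Irf9, Irf1, Irf2, Irf7, Irf8 and Batf2, which encode transcription factors of the STAT, IRF and BATF families that act in the interferon response. Open chromatin regions were given to them when the summit of a peak lay in the body of 1 of the 7 genes, or when 1 of them was the nearest protein-coding gene within 50 kb. By this rule 69 of 103809 merged regions and 385 of 531679 peaks belonged to the 7 genes. The genes had been selected on results of the same comparison in the same libraries, so every difference between recipient types below is a description and carries no test.

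Chromatin accessibility was measured by Omni-ATAC-seq, where a transposase tags DNA that is not packed by nucleosomes, in Lgr5+ stem cells of the mouse intestine 7 days after bone marrow transplantation. All recipients were B6-GFP-Lgr5 females of 8 to 12 weeks and all were lethally irradiated, controls included. Syngeneic recipients (Syn, 3 libraries) were the controls, and allogeneic recipients (Allo, 4 libraries) received BALB/c marrow, a mismatch under which donor T cells can attack the gut. Each library was an independent pool of 50000 cells sorted by the Lgr5-GFP reporter from 3 to 4 mice. A mouse without a transplant was not analysed here, so irradiation is shared by all libraries.

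The lists, limited to chromosomes 1 to 19 and X, had 71925 to 76438 peaks in Syn and 62977 to 88861 in Allo. The number of reads is unknown. Allo 3 and Allo 4, the longest lists, name their peaks by another scheme than the other 5, and no source used here says whether the same calling settings served for all. The labelled cell type was checked at gene ends, within 1 kb. Peaks were present in every library for 7 of 8 stem cell markers, Lgr5 and Olfm4 among them, with Axin2 at 0, and for 8 of 8 epithelial markers. Ptprc, Laptm5 and Cd53 of 7 pan-leukocyte markers, 9 of 10 T and NK cell markers, 4 of 5 B cell markers and Csf1r, Lyz2, Adgre1 and Mpeg1 of 8 myeloid markers had none in any library. Coro1a, Cd247, Cd79b, Itgam, Cx3cr1 and Itgax of these leukocyte lists had one in every library.

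Interferons signal through receptors and JAK kinases to STAT proteins. STAT2 and IRF9 are subunits of ISGF3, the complex formed under type I and type III interferons, which binds interferon-stimulated response elements (ISRE). Interferon gamma acts through gamma-activated sites (GAS) and induces IRF1, and IRF1, IRF8 and BATF2 then act on further genes. Intestinal stem cells are known to respond to both kinds of interferon, and in graft-versus-host disease interferon gamma from donor T cells is a known cause of stem cell loss.

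The promoter windows of 4 of the genes are shown because they hold a match to an ISRE core or a GAS and lie in the open region over the gene start in all 7 libraries. Each window runs from 250 bases before the start to 50 after it, and the sequences are from RefSeq, GRCm38.p6, the same build as mm10. All 4 genes lie on the plus strand. Capitals mark the ISRE core, GAAANNGAA, or the GAS, TTCNNNGAA, searched on both strands. The windows are chr10:128270248-128270547 for Stat2, chr11:53769764-53770063 for Irf1, chr8:46739495-46739794 for Irf2 and chr8:120736108-120736407 for Irf8.
Stat2: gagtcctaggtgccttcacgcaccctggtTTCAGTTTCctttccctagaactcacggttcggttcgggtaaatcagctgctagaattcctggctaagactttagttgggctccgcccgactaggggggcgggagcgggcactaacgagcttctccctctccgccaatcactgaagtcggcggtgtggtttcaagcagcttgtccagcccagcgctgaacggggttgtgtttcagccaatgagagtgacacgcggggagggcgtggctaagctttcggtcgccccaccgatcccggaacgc
Irf1: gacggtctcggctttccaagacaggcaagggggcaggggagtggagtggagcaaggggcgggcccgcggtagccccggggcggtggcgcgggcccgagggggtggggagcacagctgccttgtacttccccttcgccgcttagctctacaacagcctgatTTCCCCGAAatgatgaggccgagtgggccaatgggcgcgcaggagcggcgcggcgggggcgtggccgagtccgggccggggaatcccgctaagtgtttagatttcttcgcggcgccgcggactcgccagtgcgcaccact
Irf2: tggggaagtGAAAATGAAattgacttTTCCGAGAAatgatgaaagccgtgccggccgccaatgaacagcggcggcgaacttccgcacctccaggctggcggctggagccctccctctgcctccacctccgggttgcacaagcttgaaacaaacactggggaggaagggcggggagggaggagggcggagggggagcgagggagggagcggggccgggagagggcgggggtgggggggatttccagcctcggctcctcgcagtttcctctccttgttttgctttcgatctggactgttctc
Irf8: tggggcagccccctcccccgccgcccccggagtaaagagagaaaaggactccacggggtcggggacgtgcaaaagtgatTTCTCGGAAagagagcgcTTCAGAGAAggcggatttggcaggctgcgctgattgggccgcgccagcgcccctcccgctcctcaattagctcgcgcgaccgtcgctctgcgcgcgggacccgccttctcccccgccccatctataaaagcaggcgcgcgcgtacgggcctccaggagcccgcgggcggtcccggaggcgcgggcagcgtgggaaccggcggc

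Stat2 held 1 ISRE core, read on the minus strand, whose first base lay 221 bp before the gene start. Irf2 held both kinds, an ISRE core 241 bp and a GAS 224 bp before its start. Irf1 held 1 GAS 90 bp before its start, and Irf8 held a pair of them 171 and 153 bp before its start. In all 7 libraries a peak covered each of these 6 matches. Over the libraries, the nearest summit lay 9 bp from the Irf1 match, the farthest 466 bp, and the nearest 83 bp from the closer of the Irf8 matches. Over all 21045 promoter windows, 8.10% held an ISRE core and 7.76% a GAS. The AP-1 motif TGANTCA, present in 7.04% of windows, was not found in the 9 windows of the 6 genes that had one. No ISRE core or GAS was found in the windows of Irf7 and Irf9 or in the further windows of Irf1 and Irf8. Batf2 had no window. With the stricter letters GAAANTGAA, held by 2.01% of windows, both ISRE matches were still found, whereas TTCCNGGAA, held by 1.18%, matched none of the GAS.

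The 7 genes had 6 regions with a peak in every Allo and no Syn library and 1 with the reverse pattern. The 6 lay at Batf2, Irf9 and Irf1, and the 1 lay upstream of Irf2. The 6 were 8.70% of the 69 regions, where 1.14% of all merged regions had that pattern. The 1 Syn-only region was 1.45%, where 1.01% of all regions had it. Since the genes were selected on this contrast, nothing is read from these shares. With each list limited to the 62977 best-ranked peaks, the length of the shortest, the Allo-only count was 2 and the Syn-only count 2. Without Allo 1 and Allo 2 the Allo-only count was 10, and without Allo 3 and Allo 4 it was 6. Shares over all regions were not counted in these settings, and with fewer libraries the pattern is easier to meet for any region.

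**Figure D1:**
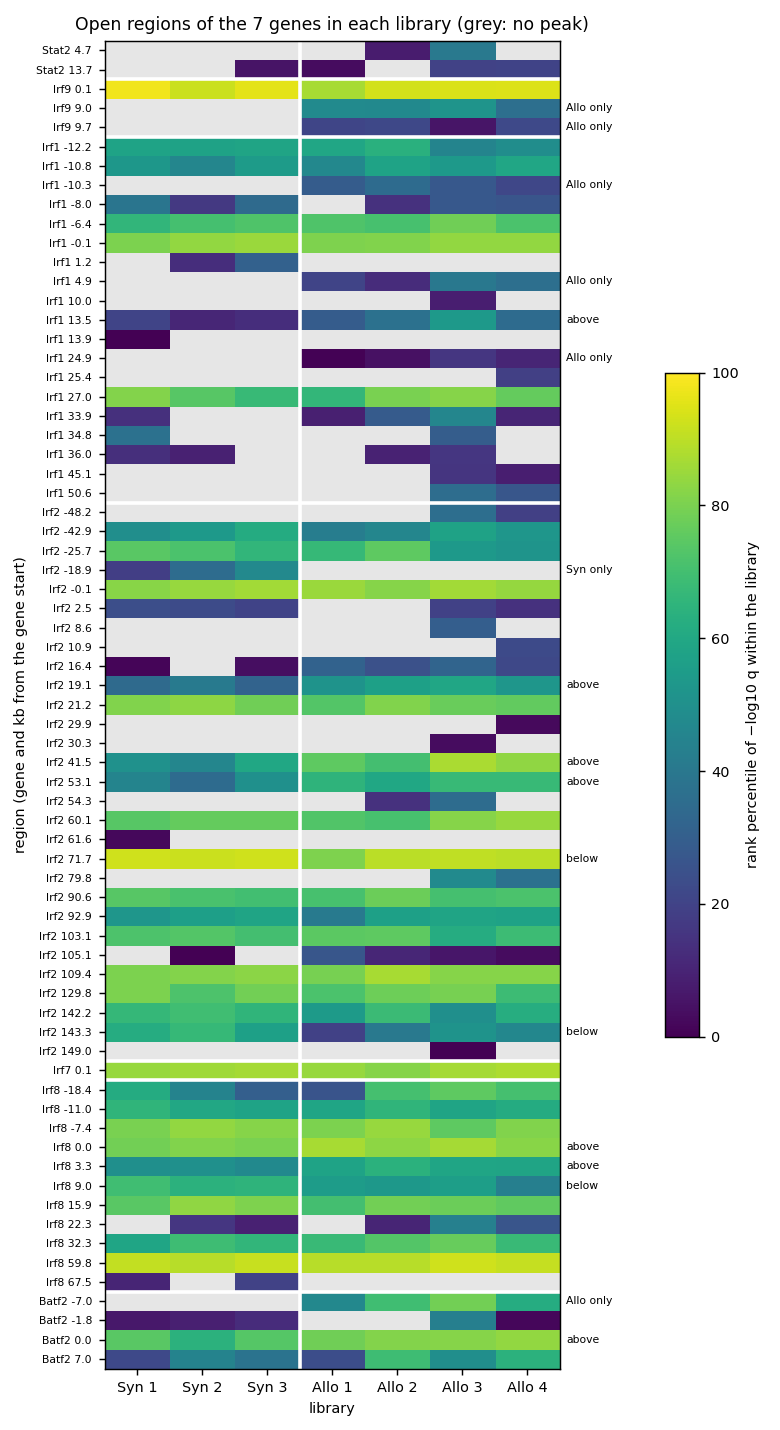
Rank percentile of the −log10 q value within each library (colour, 0 to 100) for the 69 regions of the 7 genes (rows, named by gene and kb from the gene start) in 3 Syn and 4 Allo libraries (columns). Grey marks a library with no peak, and words at the right mark the 6 Allo-only, 1 Syn-only, 7 higher and 3 lower regions.

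Of the 69 regions, 35 had a peak in all 7 libraries. Values are given as the rank percentile, the place of a region's best peak by −log10 q within its own list, where 100 is the strongest. Ranks come from lists of different lengths and describe a place in a list, not an amount of open chromatin. In 7 of the 35 shared regions every Allo percentile lay above every Syn percentile (20%, against 8.06% of all shared regions), and in 3 every Allo percentile lay below (8.57%, against 6.58%). The median difference, Allo minus Syn, was −0.02 percentile points over the 35 regions and 0.44 over all shared regions. The other 27 regions were mixed. Of these 10 were in libraries of both types, 13 in Allo and no Syn library and 4 in Syn and no Allo library, and 11 of the 13 were in Allo 3, Allo 4 or both and nowhere else. Over all merged regions 51251 of 103809 were mixed. Their split by recipient type was not counted, so nothing is read from 13 against 4.

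The classes differed in form. Shared regions were 1033 bp wide at the median, 6 of the 35 had their summit within 1 kb of an end of their gene, and their median percentile was 70.9. The 6 Allo-only regions were narrower, 261 to 620 bp, and had a median percentile of 27.9. None of the 6 lay within 1 kb of a gene end, and 1 lay inside a gene body. The 27 mixed regions were narrow as well, 317 bp at the median, and their median percentile was 19.3. Width is the union of peaks over the libraries that hold a region, and strong peaks are more readily found in every list. The differences can therefore follow from how the classes are defined, and the same values over all regions were not computed.

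The density of peaks was higher in each Allo than in each Syn library. Per 10000 peaks, the 7 genes had 7.09, 6.38 and 6.41 in Syn and 8.26, 7.49, 7.20 and 7.95 in Allo. The means were 6.63 ± 0.40 (SD, n = 3) and 7.73 ± 0.47 (SD, n = 4), a difference of 1.10. The groups overlapped when peaks inside gene bodies alone were counted, with a difference of 0.372, and when peaks within 1 kb of gene ends alone were counted, with a difference of 0.0293. A region can hold more than 1 peak of a library. Regions held, not scaled to list length, numbered 46, 43 and 44 in Syn and 45, 49, 61 and 56 in Allo, and overlapped. As the genes were selected on this contrast, nothing is read from the density. By gene, Irf9 was the 1 of the 7 whose count of regions separated the recipient types, with 1 in each Syn and 3 in each Allo library. Among 17099 genes with a region, 2.18% had more regions in every Allo than in every Syn library and 1.38% had fewer. In all these libraries, more cells with an open region and a wider opening in each cell cannot be told apart.

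**Figure D2:**
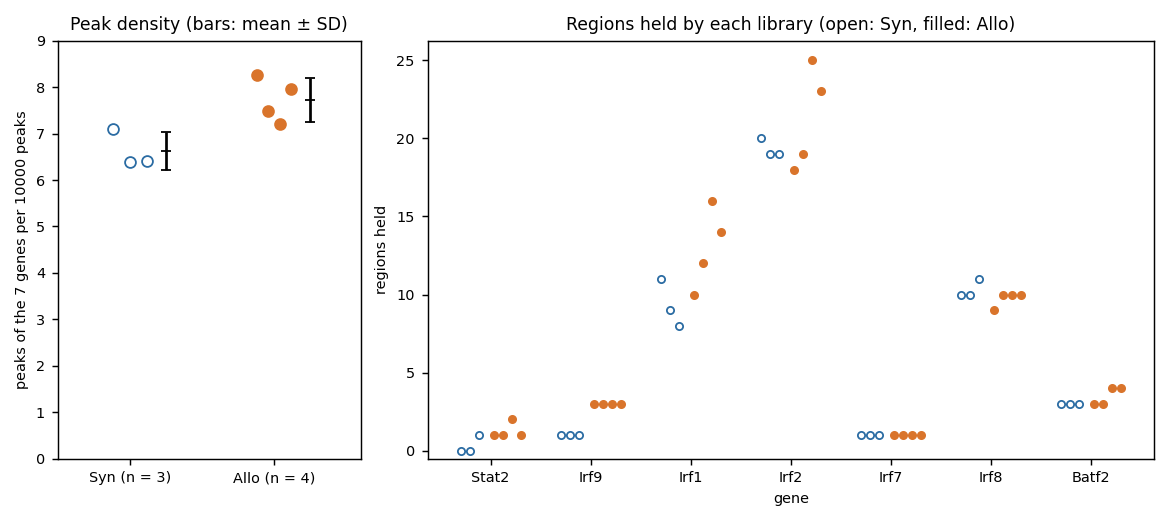
Left, peaks of the 7 genes per 10000 peaks in each Syn and Allo library (points) with mean ± SD (bars, n = 3 and 4); right, regions held by each library for each gene. The Allo points sit between 7.20 and 8.26, all above the Syn points, and Irf9 is the gene whose points separate.

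Stat2 and Irf9 encode subunits of ISGF3. Irf9 had a region over its start (chr14:55603575-55605223) that ranked among the strongest of each list, at percentiles 97.8, 91.8 and 95.8 in Syn and 86.8, 93.0, 94.4 and 94.8 in Allo. Allo 1 was lowest, and the groups overlapped. The 2 other regions of Irf9 were Allo-only and lay past its end. The first (chr14:55612700-55613167) was 2.9 kb beyond the end of Irf9 and 5.0 kb from Rec8, a cohesin gene active in meiosis. It ranked at 47.8, 47.6, 51.6 and 36.5, with a fold over background of 4.26, 4.42, 4.65 and 4.18 as deposited by the authors. Its pileup, the height of overlapping reads at the summit that solves the deposited fold and −log10 p, was 43, 43, 51 and 36. The second (chr14:55613340-55613775), 172 bp further on, ranked at 20.7, 21.5, 5.84 and 22.1, with a pileup of 36 in each Allo library. Summits of the first region lay within 71 bp of each other and those of the second within 21 bp. Of the 4 alternative settings that could change presence, a −log10 q of at least 5, lists of equal length, windows of fixed width around summits and cover of 50% of a region, the first kept its pattern in each and the second lost it in 3, all but the fixed windows.

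Stat2 had no region in its body that separated the groups. A region 4.7 kb into the gene (chr10:128275087-128275539) was found in Allo 2, at percentile 7.43, and in Allo 3, at 40.3. A region 13.7 kb in (chr10:128283704-128284329) was found in Syn 3 at 5.43 and in Allo 1, Allo 3 and Allo 4 at 3.13, 19.9 and 20.1. The promoter itself was open in every library. Its region (chr10:128269996-128271178) has its summit 56 bp before the Stat2 start but inside Apof, an apolipoprotein gene that overlaps this start, and so falls outside the rule. It ranked at 99.4, 99.6 and 99.7 in Syn and 99.2, 98.6, 98.9 and 98.8 in Allo, with pileups of 150, 160 and 167 and of 144, 148, 187 and 161. Every library placed it in its top ranks, and every Allo value lay below every Syn value, with means of 98.9 and 99.6.

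Irf1 and Irf2 are close relatives that bind the same elements, IRF1 as an activator of interferon-stimulated genes and IRF2 mostly as its antagonist. Irf1 had 19 regions, and 3 were Allo-only. The region over its start (chr11:53769305-53770817), which holds the GAS shown above, ranked at 80.1, 84.0 and 85.1 in Syn and 80.7, 81.1, 83.6 and 83.9 in Allo, and the groups overlapped. Inside the gene, 4.9 kb from the start, an Allo-only region (chr11:53774674-53775293) ranked at 20.5, 12.9, 40.2 and 36.5, with folds of 2.46, 2.19, 2.56 and 2.68 and pileups of 54, 54, 88 and 72. Upstream, 10.3 kb before the start, another (chr11:53759564-53759824) ranked at 29.1, 35.1, 27.5 and 21.4. It began 119 bp from a region that all 7 libraries held (chr11:53759047-53759444), where Syn ranked at 52.9, 45.9 and 54.7 and Allo at 46.8, 58.0, 53.7 and 59.0. The groups overlapped in that neighbour.

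The third Allo-only region of Irf1, 24.9 kb from its start (chr11:53794742-53795091), lay in the long noncoding RNA gene Gm12216 and was weak, at 0.741, 4.67, 15.9 and 10.5. Folds of the upstream region were 2.31, 2.33, 2.10 and 2.07, and those of the third were 1.99, 2.13, 2.20 and 2.23, although the pileups were 76, 87, 98 and 83 in the first case and 38, 44, 62 and 52 in the other. These Irf1 peaks were tall but stood little above a high local background. With lists of equal length, none of the 3 kept its pattern. The upstream region also lost it with windows of fixed width around summits, and the third with a −log10 q of at least 5.

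Among shared regions of Irf1, 1 separated the groups. It lay 13.5 kb from the start and 5.1 kb past the end of the gene (chr11:53783109-53783682). It ranked at 20.6, 10.9 and 13.0 in Syn (mean 14.8 ± 5.1, SD, n = 3) and at 29.2, 37.1, 53.7 and 34.99 in Allo (38.8 ± 11, SD, n = 4). Pileups were 30, 27 and 28 against 40, 45, 65 and 43 and did not overlap either. Folds were 3.35, 3.02 and 3.21 against 3.26, 3.44, 4.04 and 3.51, and overlapped. Ranked by fold, the difference of 23.9 percentile points fell to 2.99 and the groups overlapped, and with lists of equal length not every library held the region. The strong shared regions 6.4 kb before and 27.0 kb after the start overlapped, at 65.9 to 72.4 in Syn and 71.0 to 78.3 in Allo for the first and at 67.2 to 81.4 and 66.1 to 81.7 for the other. At the far end of the locus, 45.1 and 50.6 kb from the start, the regions were in Allo 3 and Allo 4 and in no other library.

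Irf2, the longest of the genes at 107714 bp, had 29 regions, 16 of them shared. The region over its start (chr8:46739154-46741795), 2642 bp wide and the widest of the 69, ranked at 82.3, 84.6 and 86.0 in Syn and 84.8, 81.9, 86.3 and 84.1 in Allo, with means of 84.3 in both. Inside the gene, 3 shared regions ranked higher in each Allo than in each Syn library. At 41.5 kb from the start (chr8:46780719-46781751) the percentiles were 50.6, 46.0 and 59.6 in Syn (52.1 ± 6.9, SD, n = 3) and 75.1, 70.1, 87.5 and 83.2 in Allo (79.0 ± 7.8, SD, n = 4). The deposited folds there were 5.54, 5.43 and 6.96 against 8.55, 7.84, 11.4 and 11.2, and the pileups were 37, 34 and 43 against 51, 49, 86 and 65. Percentile, fold and pileup all separated the groups at this region, and the percentiles still did so with lists of equal length and when ranked by fold. The pileup is solved from the fold and −log10 p, so these measures are not independent. When peaks had to cover 50% of a region, it was no longer held by all 7 libraries.

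The second such region of Irf2, at 53.1 kb (chr8:46791964-46793097), ranked at 45.2, 34.9 and 50.3 in Syn and 65.0, 59.6, 67.5 and 67.3 in Allo. Its difference of 21.3 percentile points fell to 13.9 with the mean of several peaks in place of the best, and the groups then overlapped, while at 50% cover not every library held it. The third, at 19.1 kb (chr8:46758702-46759091), ranked at 34.5, 41.3 and 31.8 in Syn and 51.4, 56.7, 59.0 and 52.4 in Allo. Its folds also separated, at 3.00, 3.22 and 3.02 against 3.91, 4.10, 4.21 and 4.05, whereas its pileups of 53, 59 and 54 against 54, 62, 73 and 59 overlapped. Nearer the start, a region at 16.4 kb (chr8:46755766-46756434) missed the Allo-only pattern because Syn 1 and Syn 3 held it at 1.20 and 3.83, near the bottom of their lists. The Allo libraries held it at 31.6, 24.7, 32.4 and 21.9. A region at 105.1 kb was held by Syn 2 at 0.252 and by the Allo libraries at 26.9, 10.7, 5.95 and 3.33.

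Irf2 also carried regions that were lower in Allo. The Syn-only region, 18.9 kb before the start (chr8:46720574-46721076), ranked at 18.5, 35.5 and 47.0, with folds of 3.88, 4.73 and 6.02 and pileups of 22, 29 and 33. It kept its pattern in each of the 4 settings for presence, of which the −log10 q limit, equal lengths and cover could not add an Allo peak. Past the gene, 143.3 kb from its start and 35.5 kb from its end (chr8:46882567-46883655), the percentiles were 61.9, 67.0 and 56.8 in Syn and 19.4, 40.4, 51.5 and 46.4 in Allo. Pileups there were 58, 64 and 57 against 24, 37, 42 and 36. The strongest region of the gene, 71.7 kb from the start (chr8:46811066-46812012), ranked at 93.0, 92.1 and 92.8 in Syn and 80.7, 89.8, 90.5 and 89.8 in Allo, with Allo 1 apart from the rest. Folds at both of the last regions overlapped, and ranked by fold they no longer separated the groups.

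**Figure D3:**
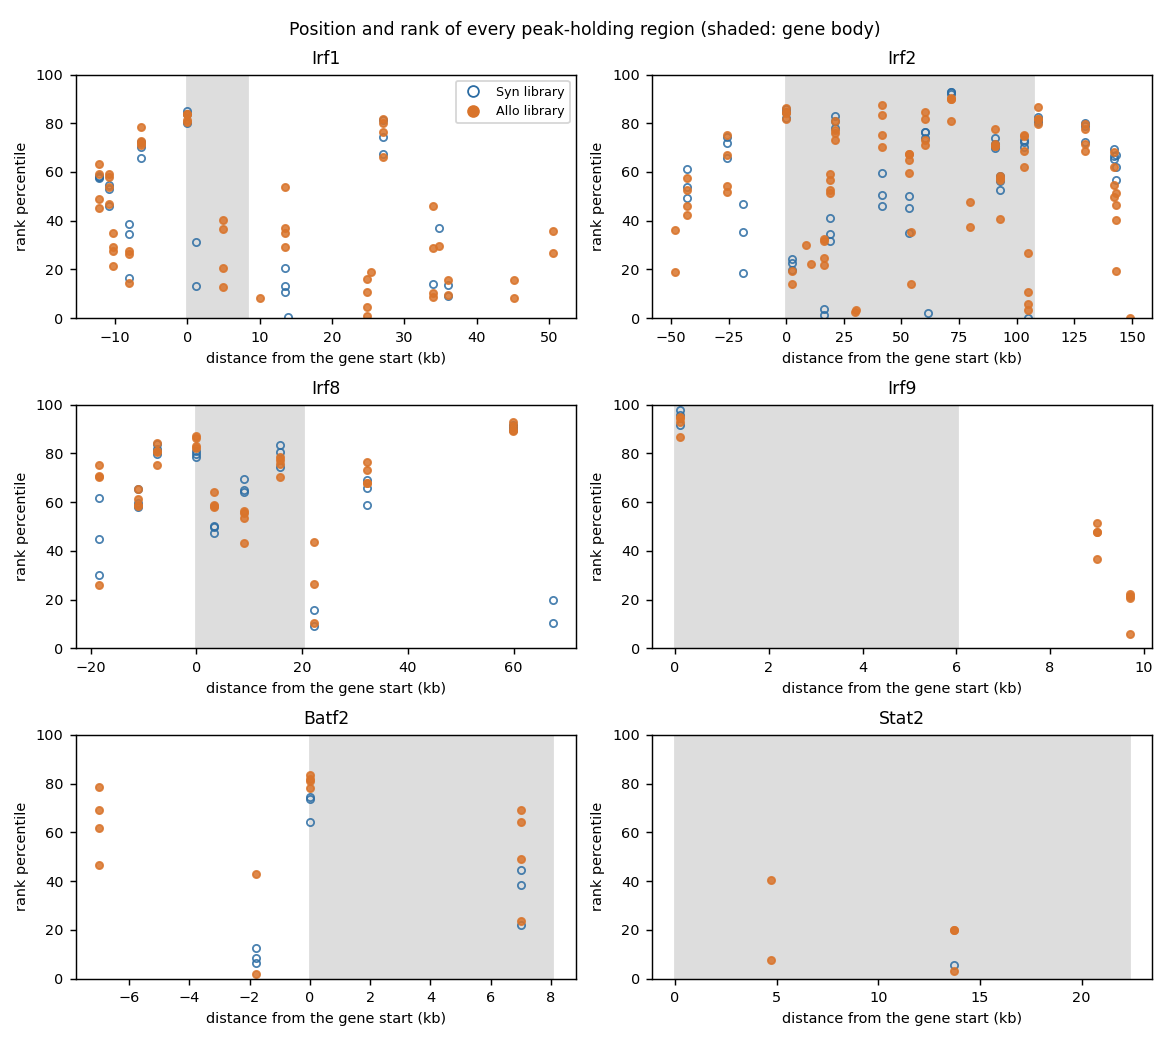
Rank percentile (vertical axis, 0 to 100) of each region of 6 genes in each library that holds it, by distance of the summit from the gene start in kb (horizontal axis). Open blue circles are Syn, filled orange circles are Allo, and the gene body is shaded. In Irf2 the Allo circles lie above the Syn circles at 19.1, 41.5 and 53.1 kb and below them at 143.3 kb.

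Irf7 encodes the factor that amplifies type I interferon production. It had 1 region, over its start (chr7:141265021-141266790), which ranked at 84.6, 85.7 and 86.6 in Syn and 84.5, 81.7, 86.7 and 87.7 in Allo. The groups overlapped.

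Irf8 encodes a factor best known for myeloid and lymphoid cells, and it had 11 regions in these libraries, 9 of them shared. The region over its start (chr8:120735652-120736839), with the pair of GAS letters shown above, ranked at 78.7, 81.0 and 79.9 in Syn (79.9 ± 1.2, SD, n = 3) and 87.0, 83.1, 86.3 and 82.1 in Allo (84.6 ± 2.4, SD, n = 4). Its folds were close, at 4.82, 4.80 and 4.88 against 5.61, 5.07, 4.97 and 4.86, and ranked by fold the difference of 4.76 percentile points became −0.95. In the gene, 3.3 kb from the start (chr8:120739130-120739865), the percentiles were 49.7, 50.4 and 47.3 in Syn and 58.1, 64.0, 58.8 and 58.3 in Allo. The folds there, 3.10, 3.03 and 2.99 against 3.39, 3.55, 3.09 and 3.26, overlapped. Neither of these regions separated the groups with lists of equal length or when ranked by fold.

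Another Irf8 region, 9.0 kb from the start (chr8:120743956-120745887), ranked lower in Allo. The percentiles were 69.4, 64.3 and 65.1 in Syn (66.3 ± 2.7, SD, n = 3) and 55.5, 53.3, 56.2 and 43.3 in Allo (52.1 ± 6.0, SD, n = 4). Folds of 4.95, 4.60 and 4.87 against 4.40, 4.05, 3.58 and 3.27 did not overlap either. Pileups of 78, 73 and 75 against 52, 57, 82 and 61 did overlap, with Allo 3 the highest. The region is 1932 bp wide and its summits were spread over 1254 bp, so the libraries did not all peak at 1 place. The best peaks of Allo 3 and Allo 4 had their summit at 120744070, those of the other libraries at 120745306 to 120745324. Near the first place separate peaks of Syn 2 and Syn 3 ranked at 39.1 and 52.0. The Allo peaks there ranked at 34.0, 49.6, 56.2 and 43.3, and overlapped these. Near the second, Allo 3 and Allo 4 ranked at 35.4 and 33.6, below every Syn library. It was lower in every Allo library with lists of equal length and when ranked by fold as well. The strongest region, 59.8 kb from the start and 39.5 kb past the end, did not differ beyond the spread, with means of 90.7 in both types. At 18.4 kb before the start, values ranged from 30.3 to 61.6 in Syn and were 26.1, 70.3, 75.4 and 70.7 in Allo, with Allo 1 below every Syn library.

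Batf2 encodes a small bZIP factor that partners with IRF1 and is induced by interferon gamma in macrophages. Batf2 had no strand in the annotation used here, so its start means the gene end with the lower coordinate. It had the Allo-only region with the highest mean percentile of the 7 genes, 64.1 ± 13 (SD, n = 4), 7.0 kb before its start (chr19:6157089-6157685), and the next protein-coding gene, Arl2, lay 16.3 kb away. The percentiles were 46.7, 69.2, 78.5 and 62.0, the folds 5.06, 7.92, 10.4 and 8.41, and the pileups 34, 47, 61 and 36. The summits of the 4 Allo libraries fell within 7 bp of each other. No Syn list had a peak there. As a guide to what a list could hold, the lowest 1% of peaks had median pileups of 15 to 16 in Syn. In Allo these were 15, 14, 12 and 12, so the lists of Allo 3 and Allo 4 reached lower pileups than any Syn list. The Syn coverage at this place was not used here, so a peak missing from a list does not show closed chromatin. The pattern was kept in each of the 4 settings that could change presence.

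The region over the Batf2 start (chr19:6163726-6164966) was shared and ranked higher in Allo. It stood at 74.5, 64.4 and 73.6 in Syn (70.8 ± 5.6, SD, n = 3) and 78.2, 81.3, 81.7 and 83.7 in Allo (81.2 ± 2.3, SD, n = 4), with pileups of 65, 58 and 70 against 71, 79, 96 and 82. The folds of 7.11, 5.69 and 6.89 against 6.75, 7.45, 7.07 and 8.52 overlapped, and so did the ranks by fold, where the difference fell from 10.4 to 3.15. A region inside the gene, 7.0 kb from the start, varied widely within both types, at 22.0, 44.7 and 38.2 in Syn and 23.6, 69.0, 49.3 and 64.3 in Allo. Whether a region lies in an exon or an intron is not resolved here, since the gene table gives gene ends alone.

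**Figure D4:**
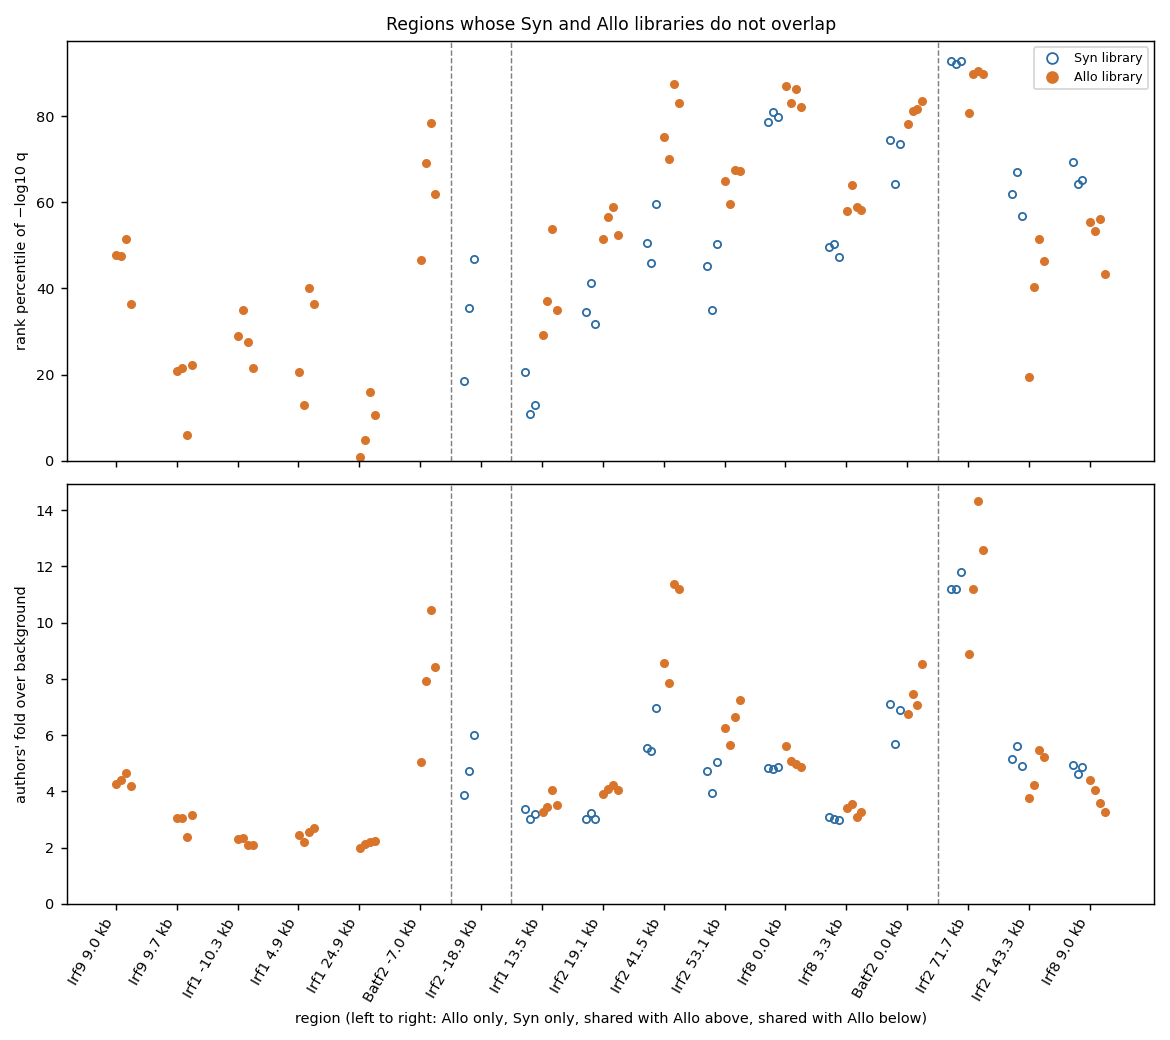
Rank percentile (top) and the authors' fold over background (bottom) in each library for the 17 regions whose Syn (open blue) and Allo (filled orange) libraries do not overlap in presence or in rank. The Batf2 region at −7.0 kb has the highest mean percentile of the Allo-only regions, and at Irf2 41.5 kb both percentile and fold separate the groups.

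Near the 50 kb limit of the rule, the regions just inside were 1 of Irf8 at 47.2 kb from the gene, held by Syn 1 and Syn 3 at 10.2 and 19.8, and 1 of Irf2 at 48.2 kb, held by Allo 3 and Allo 4 at 36.2 and 19.04. The region just outside was 51.2 kb from Irf8 and was held by all 7 libraries, at 22.8 to 45.9 in Syn and 22.1 to 36.6 in Allo.

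The remaining STAT, IRF and BATF genes give the comparison within the families. Of 12 such genes 11 had regions, 60 in all. Of these 1 was Allo-only, 0 were Syn-only, 4 of 31 shared regions were higher in Allo and 2 were lower. The shares were 1.67%, 0%, 12.9% and 6.45%, beside 1.14%, 1.01%, 8.06% and 6.58% over all regions. The Allo-only region lay near Irf4 (chr13:30738273-30738643), a gene of lymphocyte differentiation, at 57.7, 54.1, 21.4 and 42.7. Irf3 had no region under the rule.

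Receptors and kinases upstream of these factors, 9 genes with 101 regions, had 0 Allo-only and 0 Syn-only regions, and 4 of 56 shared regions were higher in Allo and 2 lower, 7.14% and 3.57% beside 8.06% and 6.58% over all shared regions. The feedback genes, 6 with 45 regions, had 1 Allo-only region at Socs1, an inhibitor of JAK kinases (chr16:10768788-10769181), at 37.4, 36.9, 40.1 and 39.0. That is 2.22% of their regions, beside 1.14% of all. Of their 24 shared regions 5 were higher (20.8%) and 1 was lower (4.17%). The co-regulators, 7 genes with 55 regions, had 2 Allo-only regions, at Ciita and Nlrc5, the regulators of MHC class II and class I genes. These were 3.64% of their regions, and of 25 shared regions 5 were higher (20%) and 0 lower. The target genes, 16 of 20 with 64 regions in all, had 9 Allo-only regions in 7 genes, namely Gbp2, Gbp4, Iigp1, Igtp, Ifit2, Oas2 and Cd274, and 1 Syn-only region at Irgm1. The Allo-only regions were 14.1% and the Syn-only region 1.56% of the 64, and of 25 shared regions 5 were higher (20%) and 0 lower. These lists were written with earlier results known, so their counts describe them and are no independent evidence.

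The genes most like the 7 in their pattern over libraries were sought among 10723 genes with at least 3 regions. The measure was Pearson's r over the 7 libraries between the mean percentile over a gene's regions, with 0 for a missing peak, and the mean of the 7 genes. That mean was 37.7, 37.6 and 38.8 in Syn and 41.1, 45.9, 53.5 and 47.4 in Allo. The closest were Mrpl23 (r = 0.996), Aacs (r = 0.995), Hephl1 (r = 0.994), Cacna1b (r = 0.992) and Gm20517 (r = 0.992). The points share their libraries and list lengths, and the highest mean fell in Allo 3, which also had the longest list.

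Markers of other cells were compared for the same libraries, and the ranges of their summed peak counts overlapped between recipient types. Peaks of the 7 pan-leukocyte genes numbered 1.70 to 2.09 per 10000 in Syn and 1.84 to 3.04 in Allo, highest in Allo 3. Those of the 10 T and NK cell genes numbered 1.96 to 2.09 and 1.91 to 2.81, and those of the 8 myeloid genes 2.36 to 2.62 and 2.36 to 2.57. The 5 B cell genes had 0.417 to 0.785 and 0.612 to 0.794, and the 6 endothelial and stromal genes 3.61 to 3.80 and 3.18 to 4.28. The 8 epithelial genes had 8.82 to 9.68 in Syn and 8.55 to 10.8 in Allo. The 8 stem cell genes had fewer peaks in each Allo library, 12.1 to 12.4 per 10000 against 12.6 to 13.6 in Syn. At gene ends, Cd68 had a peak in 1 of 3 Syn and 4 of 4 Allo libraries and Cd52 in 1 of 3 and 3 of 4. Vav1 had one in 2 of 3 and 2 of 4, and Ikzf1 in 0 of 3 and 1 of 4. Vim had one in 2 of 3 and 3 of 4, and Col1a1 in 3 of 3 and 3 of 4. The part of such cells, or of fewer stem cells, in the regions of the 7 genes was not tested.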

How the data were processed

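Omni-ATAC-seq peaks of 3 Syn and 4 Allo libraries were used, grouped by the recipient label. Tools named in the submitters' processing notes are Bowtie2, Trim Galore, MACS2 and MACS3, with build mm10 and with no role, version or calling threshold. The authors deposited 1 peak list of 10 columns per library, called per library. Each peak has the authors' fold of its pileup over an expected pileup, and −log10 values of p and q. The deposited score is a whole-number form of −log10 q made by the authors' caller and was not used. No source used here tells how reads were shifted or extended, which bears on widths and pileups. The lowest −log10 q was 1.30 to 1.42.

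Peaks overlapping by at least 1 bp over libraries were merged. A region's value in a library is the highest mid-rank percentile of −log10 q there. Pileups were solved from the deposited fold and −log10 p as a whole number, within 0.001, for 385 of 385 peaks. Genes (21631 protein-coding) and promoter windows came from RefSeq tables of GRCm38.p6, and 6 of 7 genes had a window. The members and lists were chosen with earlier results of these data known. Named items were the 7 genes, their gene-end and separating regions, list genes with a region of 1 recipient type, and the 5 most alike genes. No test was made, and the number of reads behind a peak is unknown, so no interval is given. As alternatives, presence was limited to −log10 q of at least 5, and further ones were equal list lengths, windows of 501 bp around summits, cover of 50% of a region, assignment by gene bodies or ends alone, ranking by fold, the mean of several peaks, and leaving out libraries. The merging and counting were tested on simulated data. Python 3.11.15, numpy 2.4.6, scipy 1.17.1, pandas 2.3.3 and matplotlib 3.10.9 were used.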

Additional observations from a re-analysis of the deposited data

Results flagged for a closer look

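Of 52 sets of 4 Allo values, 8 had a library set apart by Dixon's 95% critical value. The measure is its gap to the nearest other, divided by the range. For independent, normally distributed values chance alone gives this in about 1 in 20 sets. Rank percentiles are bounded and the sets share their libraries, so that rate is a rough guide at most. For the 2 sets that are small counts with ties, Stat2 and Irf8 regions held, that rate does not apply, since any single differing library passes. Allo 1 was the low library in 3 of the other 6. It held the Irf2 region at 71.7 kb at percentile 80.7, the other 3 being at 89.8 to 90.5. The Irf2 region at 92.9 kb stood at 40.8 in Allo 1 and at 56.7 to 58.5 in the rest. The Irf8 region 18.4 kb before the start stood at 26.1 in Allo 1 and at 70.3 to 75.4 in the rest. Allo 1 also held 9 regions of Irf8 where the others held 10. Allo 2 stood highest at the Irf2 region at 90.6 kb, at 77.4 against 70.6 to 71.5, and at the Irf8 region at 3.3 kb, at 64.0 against 58.1 to 58.8. In Allo 3 the Irf9 region at 9.7 kb stood at 5.84, with the others at 20.7 to 22.1, and Allo 3 held 2 regions of Stat2 where the others held 1.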

How the results depend on the processing

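No paired analysis was possible because the results come from no test and the replicate numbers are not said to pair the libraries. The Batf2 region at −7.0 kb, the Irf9 region at 9.0 kb, the Irf2 regions at −18.9 and 19.1 kb and the Irf8 region at 9.0 kb kept their pattern in 4 of 17 settings for presence and 6 for ranks. The rest do not count, since gene assignment and leaving out libraries cannot undo a complete separation of a region. Some of those counted could not change a given region either. Limits on −log10 q, list length and cover only take peaks away, so they cannot add a peak of the other recipient type. The lowest −log10 q was 13.1 in the Batf2, 11.1 in the Irf9 and 6.44 in the Syn-only Irf2 region, so the limit of 5 removed nothing there. In the Irf2 region at 19.1 kb each library had 1 peak, so the mean of several peaks changed nothing. At 50% cover the Irf2 regions at 41.5 and 53.1 kb, and with equal lengths the Irf1 region at 13.5 kb, were no longer held by all libraries. With lists of equal length, 2 Allo-only, 2 Syn-only and 4 higher shared regions were counted. With gene bodies alone these were 1, 0 and 4, and with gene ends alone 0, 0 and 2, beside 1 lower region. That lower region was the one over the Stat2 start with its summit in Apof. It falls outside the main rule and is taken in when gene ends alone decide. The density difference was 0.372 and 0.0293 in these cases, where fewer peaks are counted. Without Allo 1 and Allo 2 there were 10 Allo-only, 12 higher and 9 lower regions. Without Allo 3 and Allo 4 there were 3 Syn-only and 7 lower regions. Ranking by fold left 3 higher regions and turned the Irf8 start region to −0.948. The stricter GAS matched 0 windows instead of 3. Leaving out 1 library at a time gave 6 to 7 Allo-only, 1 to 2 Syn-only, 7 to 9 higher and 3 to 5 lower regions, and a density difference of 0.922 to 1.33. The Syn-only count was 2 without Syn 1 and without Syn 2, and the lower count was 5 without Syn 1 and without Allo 2. With fewer libraries a complete separation is easier to meet for any region, so counts without libraries can rise by design. Shares over all regions were not counted in any of these settings, so nothing is read from the shifts. Their cause was not tested further. The unknown number of reads limits what a missing peak shows.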
